A study of Mus musculus with 8 samples.

Results

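The genes for the subunits of the 5 complexes of oxidative phosphorylation were followed in mouse embryonic fibroblasts after induction of c-Src. They were taken by name: every gene on the array called Nduf with the letter a, b, c, s or v and a number, Sdha to Sdhd, and every name beginning with Uqcr, Cox4 to Cox8 or Atp5. This gave 85 of 36161 gene names, of which 82 were measured, meaning that a probe was well above background on both arrays of at least 1 time. The 82 were 37 of 37 genes named for complex I, 4 of 4 for complex II, 8 of 8 for complex III, 16 of 19 for complex IV and 17 of 17 for complex V. All 82 were well above background on all 8 arrays. The 3 left out, Cox7b2, Cox8b and Cox8c, are complex IV isoforms known from testis or from heart and muscle, and they were above background on 0 arrays. The name rule also takes 3 genes that are not subunits. They are Cox4nb (now Emc8, of the endoplasmic reticulum membrane complex), Atp5s (now Dmac2l, a coupling factor of the ATP synthase) and Atp5sl (now Dmac2, linked to complex I assembly).

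Complexes I to IV pass electrons from NADH and succinate to oxygen in the inner mitochondrial membrane and, except for complex II, pump protons. Complex V, the ATP synthase, uses the proton gradient to make ATP. Most subunits are encoded in the nucleus and imported, while a few of the core of complexes I, III, IV and V come from mitochondrial DNA. Several complex IV subunits exist as paired isoforms, one found in most cells and one restricted to tissues such as heart, skeletal muscle, lung or testis.

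All groups, 0 h included, were Csk-/- fibroblasts, which lack the kinase that restrains Src family kinases, and all carried the transfected vector pBKT2-c-Src. The 4 groups differ in the time with doxycycline (1 μg/ml): 0, 6, 24 and 72 h, with 2 arrays each. Nothing in the labels says that the duplicates were grown apart, so a p-value here reflects array-to-array spread that could be purely technical. Time with doxycycline and row on the slide ran together and cannot be told apart. Time in culture may have run with them too. Every comparison below with 0 h shares the same 2 arrays of that time. The labels do not say whether the line is 1 clone.

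The arrays were alike in depth, with 49.9% to 54.7% of 59305 spots above background and 0 saturated. Src rose 26.9-fold at 6 h and was 19.6-fold above 0 h at 72 h, and the Csk probe was above background on 0 of 8 arrays. Of 10 fibroblast markers 9 were above background (Thy1 was not). At 72 h 7 of the 9 were called lower and 2, Vim and Twist1, higher (median -0.44, range -1.62 to 0.65; 6 lower when arrays were scaled to the median). Their summed level, relative to each array's 75th percentile, was 1160 and 1170 at 0 h and 938 and 949 at 72 h. The defining markers of other cells, Epcam and Cdh1 for epithelium, Ptprc and Emr1 for macrophages, Cdh5 for endothelium, Adipoq for adipocytes and Myod1, Myog and Ckm for muscle, were not above background, but other members of these lists were, and some moved. Of 6 macrophage markers 3 were above background at some time, and Csf1r, Cd68 and Cd14 were all higher at 24 h, while their list's summed level went from 1.37 to 1.5 at 0 h to 1.88 to 1.97 at 72 h. Of 6 epithelial markers Krt8 and Krt18 were higher at 24 and 72 h and Krt19 lower at 72 h, with sums of 2.94 to 3.67 at 0 h and 4.90 to 5.07 at 72 h. Of 6 adipocyte markers 4 were measured, of which 3 were lower at 72 h and Fabp4 higher (median -0.91), with sums of 6.40 to 6.52 and 3.99 to 4.12. Of 5 endothelial markers 3 were measured and Tek was lower at 72 h, with sums of 2.32 to 2.39 and 2.25 to 2.26. The part of any change in cell make-up in the results was not tested, and in these bulk samples fewer cells of a type and less RNA per cell cannot be told apart.

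Most of the 82 genes moved little. Values are log2 of the signal relative to the array's 75th percentile, a difference is between the means of 2 times, and a gene is called when limma's p, adjusted over all 20847 genes tested, is under 0.05. At 6 h 1 of the 82 was called higher and 0 lower, where over all genes 10.3% were higher and 7.23% lower. At 24 h 6 were higher (7.32%) and 9 lower (11.0%), where over all genes 21.4% were higher and 20.1% lower. At 72 h 11 were higher (13.4%) and 24 lower (29.3%), where over all genes 27.5% were higher and 24.6% lower. Set against those shares, the 82 had a smaller share called higher at each time. The share called lower was smaller at 6 and 24 h, but not at 72 h. With other scalings this order changed, as given below. At 72 h the share called lower was also below that of all genes when any 1 array of 0, 6 or 72 h was left out. The same held with only the 4 arrays compared (16 lower, where over all genes 22.6% were lower) and with no filter on dim probes (8 lower, over all genes 10.4%). Without the 3 genes that are not subunits, 10 of 79 were higher and 23 lower at 72 h.

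The size of the differences was small as well. The median of the 82 was 0.04 at 6 h, -0.01 at 24 h and -0.04 at 72 h, and the median over all genes was 0.00, -0.02 and 0.00. Regardless of sign, the median difference of the subunit genes at 72 h was 0.14 on the log2 scale, against 0.28 over all genes. The median standard error was also smaller for the 82, 0.0538 against 0.0754 over all genes. The 82 were well above background on every array, which was not required of all genes. The part of this in the smaller differences was not tested. At 72 h 69 of the 82 genes (84.1%) lay within 1.2-fold of 0 h, as did 47.4% of all genes; this limit was chosen after the values were seen. A change past 1.5-fold was called for 0 of the 82 at 6 h, 2 at 24 h and 3 at 72 h. In all, 44 genes were never called against 0 h, 14 were called higher only, 24 lower only and 0 in both directions.

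**Figure D1:**
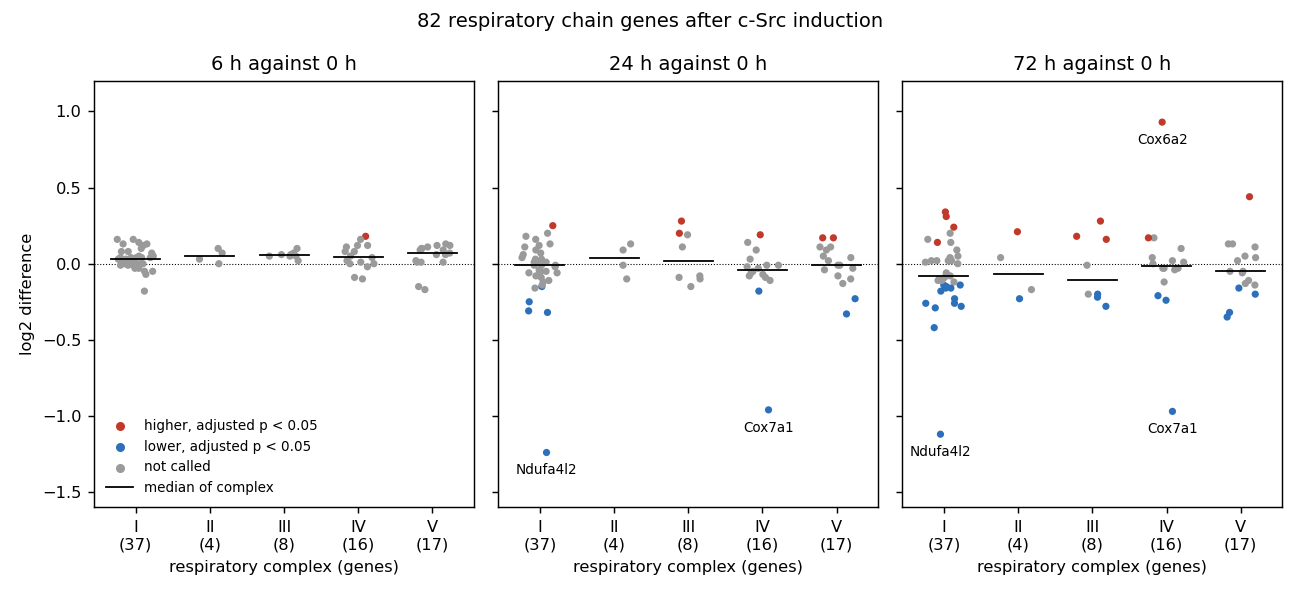
Each point is 1 of the 82 genes, placed by complex (number of genes in parentheses) with its log2 difference from 0 h at 6, 24 and 72 h, and the bar is the median of the complex. Points past 1.5-fold are Ndufa4l2 and Cox7a1, lower at 24 and 72 h, and Cox6a2, higher at 72 h; the other points stay within 0.44 of 0, and the sign of the medians turns with the scaling of the arrays.

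The split between higher and lower depended on how the arrays were scaled. With each array scaled to its median, 28 were higher (34.1%) and 2 lower (2.44%) at 72 h, where over all genes 38.5% were higher and 12.8% lower. At 24 h that scaling gave 22 higher (26.8%) and 2 lower (2.44%), where over all genes 29.0% were higher and 9.84% lower. With quantile normalization 7 were higher (8.54%) and 34 lower (41.5%) at 72 h, where over all genes 26.6% were higher and 24.9% lower. At 24 h it gave 2 higher (2.44%) and 22 lower (26.8%), where over all genes 20% were higher and 21.4% lower. The share called higher was thus below that of all genes in these 3 scalings at 24 and 72 h, and the share called lower was below it with the median and above it with quantile normalization. Scaling to the median moved the median of all genes by 0.18 at 72 h. The array medians were 18.3 and 20.4 signal units at 0 h and 17.0 and 16.8 at 72 h. Relative to the median of all genes, the median of the 82 at 72 h was -0.04 with the 75th percentile, -0.03 with the median and -0.14 with quantile normalization. Differences near 0.2 in the paragraphs that follow are therefore relative to the chosen scaling. Where nothing is said of the other scalings, a call may or may not have held in them. Single arrays mattered too. Without the second 72 h array the counts at 72 h were 5 higher and 9 lower, without the first 7 and 10, without the second 0 h array 7 and 10, without the first 6 and 16, and without either 6 h array 7 and 17. At 24 h the 6 genes called higher became 2 without the first 0 h array and 3 without either 6 h array or the second 24 h array.

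**Figure D2:**
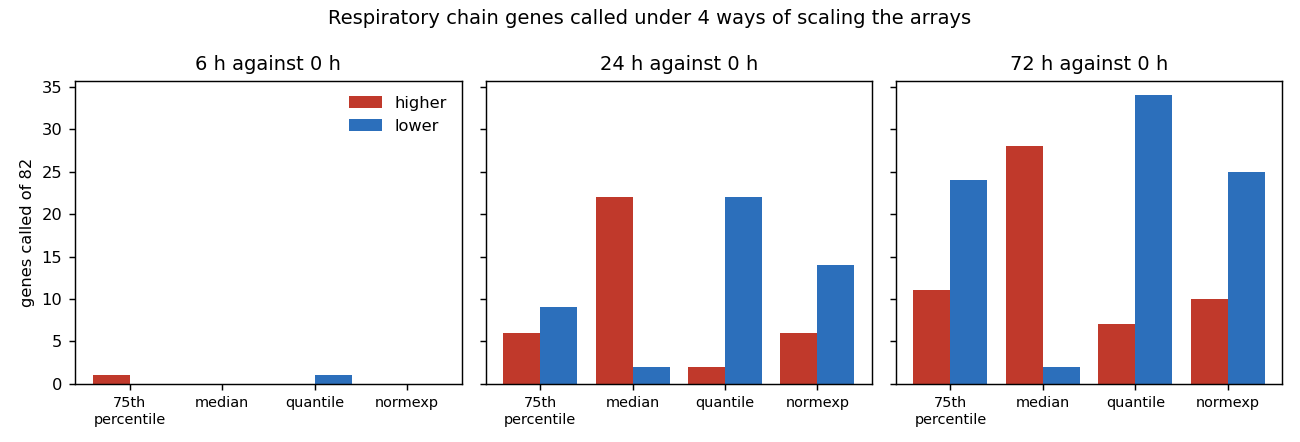
Bars give how many of the 82 genes were called higher or lower than at 0 h (adjusted p under 0.05) with 4 ways of scaling or background correction. At 72 h the counts were 11 and 24 with the 75th percentile, 28 and 2 with the median, 7 and 34 with quantile normalization, and 10 and 25 with normexp.

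The later times were also compared with each other. From 6 to 24 h 2 of the 82 were higher and 9 lower, where over all genes 12.6% were higher and 13.6% lower. From 24 to 72 h 5 were higher and 3 lower, where over all genes 10.8% were higher and 10.9% lower. The genes higher from 6 to 24 h lost their calls without either 6 h array, the first 24 h array or either 72 h array. Fewer were called lower from 6 to 24 h without any 1 array, as over all genes. For the step from 24 to 72 h fewer were called in both directions without any 1 array, again as over all genes. The genes lower from 24 to 72 h lost their calls without the first 24 h array or either 72 h array.

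The largest changes were in 3 genes that encode tissue-restricted or hypoxia-induced relatives of common subunits. Ndufa4l2, a relative of Ndufa4 known to be induced by low oxygen through HIF-1, was measured by 1 probe (chr10:126954149-126954208, mm9). Its log2 values were -1.19 and -1.12 at 0 h, -1.37 and -1.31 at 6 h, -2.32 and -2.47 at 24 h, and -2.36 and -2.19 at 72 h. The arrays of 24 and 72 h were all lower than those of 0 and 6 h, with no overlap. The gene fell 2.37-fold at 24 h (-1.24 ± 0.08 SE, n = 2, limma adjusted p = 2.86e-04) and was 2.18-fold below 0 h at 72 h (adjusted p = 2.12e-04). At 6 h the difference was -0.18 (adjusted p = 0.182). The common relative Ndufa4, named for complex I but now counted with complex IV, was not called at any time, with differences of 0.13, 0.06 and -0.08.

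Cox7a1, the heart and skeletal muscle isoform of complex IV subunit VIIa, gave a similar course (probe at chr7:30970337-30970948, mm9). Its log2 values were 1.23 and 1.37 at 0 h, 1.30 and 1.34 at 6 h, 0.29 and 0.39 at 24 h, and 0.26 and 0.39 at 72 h. All arrays of 0 and 6 h were higher than all arrays of 24 and 72 h. The fall was 1.95-fold at 24 h (-0.96 ± 0.08 SE, n = 2, limma adjusted p = 4.87e-04) and 1.96-fold at 72 h (adjusted p = 2.67e-04), with 0.02 at 6 h. Cox7a2, the isoform of most cells, differed by 0.11, 0.09 and -0.04 and was not called.

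Cox6a2, the heart and skeletal muscle isoform of subunit VIa, went the other way and later (probe at chr7:135349160-135349219, mm9). Its log2 values were 0.64 and 0.74 at 0 h, 0.72 and 0.66 at 6 h, 0.58 and 0.77 at 24 h, and 1.65 and 1.59 at 72 h. Only the 72 h arrays stood apart. The rise at 72 h was 1.90-fold against 0 h (0.93 ± 0.08 SE, n = 2, limma adjusted p = 3.24e-04) and 1.93-fold against 24 h (adjusted p = 0.00290). The differences at 6 and 24 h were -0.00 and -0.02. Its partner in most cells, Cox6a1, was 8.93 and 8.96 at 0 h and 8.74 and 8.73 at 72 h and fell by 0.21 (adjusted p = 0.00663), a call lost when arrays were scaled to the median (-0.03) and when dim probes were not filtered.

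The muscle markers beside these isoforms were 2 of 6 above background, with Myod1, Myog, Ckm and Myh3 not above it. Their summed level was 1.13 on both 0 h arrays, 2.09 to 2.26 at 6 h and 2.09 to 2.17 at 72 h. Acta1, skeletal muscle actin, was the marker that rose, by 1.54 at 6 h (adjusted p = 1.60e-04). Acta1 stayed above 0 h, by 1.43 at 24 h and 1.46 at 72 h. Against 0 h Cox6a2 was called only at 72 h. Whether muscle-like cells take part in these values was not tested.

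The other tissue isoforms of complex IV differed less from 0 h. Cox4i2, the lung isoform of subunit IV, differed by 0.12, -0.09 and 0.00 at 6, 24 and 72 h and was not called. Cox6b2, the testis isoform of subunit VIb, differed by 0.17 at 72 h (adjusted p = 0.0503) and rose by 0.24 from 24 to 72 h (adjusted p = 0.0338). Its 72 h difference from 0 h was called in 4 of 19 alternatives, among them the median as scale (0.35) and quantile normalization (0.31). Of the partners in most cells, Cox4i1, Cox6b1, Cox7b and Cox8a were not called at any time, with differences at 72 h of 0.01, 0.02, -0.03 and -0.12. Calls and directions of Ndufa4l2, Cox7a1 and Cox6a2 held in each scaling and without any 1 array: Ndufa4l2 at 72 h ranged from -1.21 to -0.79 over all settings, Cox7a1 from -1.05 to -0.79 and Cox6a2 from 0.86 to 1.11.

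**Figure D3:**
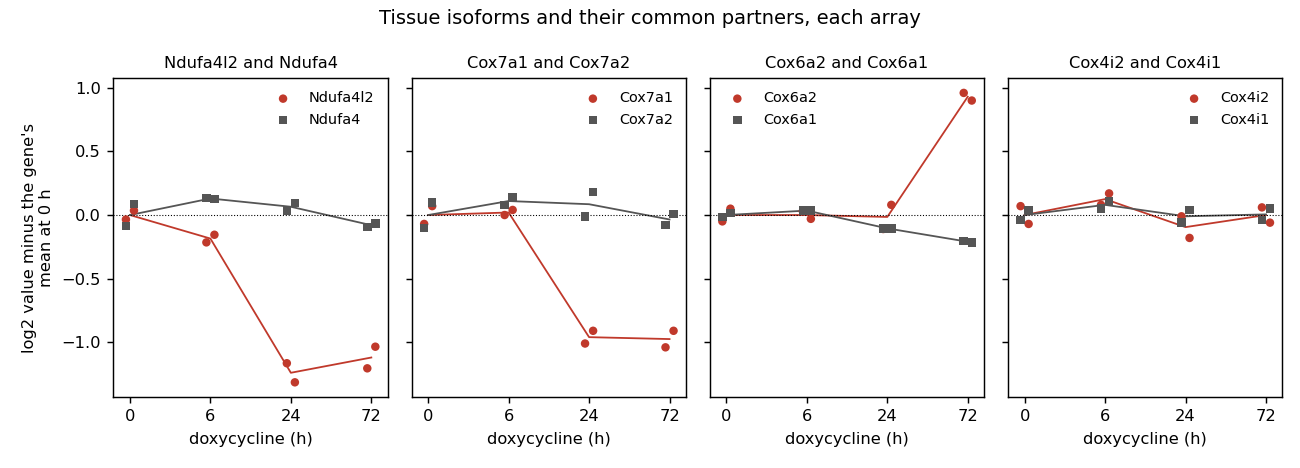
Each panel plots a tissue or hypoxia isoform (red circles) and its common partner (grey squares) on the 8 arrays, as log2 value minus that gene's own mean at 0 h, against hours of doxycycline (not to scale); lines join the means of the 2 arrays. Ndufa4l2 and Cox7a1 drop between 6 and 24 h, Cox6a2 rises between 24 and 72 h, and Cox4i2 stays near 0.

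Complex I, the NADH dehydrogenase, had 1 gene called higher (2.70%) and 5 lower (13.5%) at 24 h, beside 21.4% and 20.1% of all genes. At 72 h 4 were higher (10.8%) and 13 lower (35.1%) of 37, beside 27.5% and 24.6%. With the median as scale the split at 72 h was 13 higher and 1 lower (38.5% and 12.8% of all genes). With quantile normalization it was 3 and 16 (26.6% and 24.9%). The core subunits, which hold the flavin and the iron-sulfur clusters and are shared with bacteria, had 2 of 7 higher (28.6%, beside 27.5% of all genes) and 0 lower at 72 h, with a median of 0.05. The other 30, accessory subunits that stabilise the complex together with Ndufa4 and Ndufa4l2, had 2 higher (6.67%) and 13 lower (43.3%, beside 24.6% of all genes) and a median of -0.11. Scaling to the median shifted both medians, to 0.23 and 0.07, and quantile normalization gave -0.02 and -0.18. This division was chosen after the values were seen and the difference between the groups was not tested.

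Ndufs1, the largest core subunit, was 4.71 and 4.75 at 0 h, 4.70 and 4.77 at 6 h, 4.83 and 4.95 at 24 h, and 5.00 and 5.09 at 72 h. The 72 h arrays were above all others, with a rise of 0.31 ± 0.06 (SE, n = 2, limma adjusted p = 0.00974), not called without the first 0 h or the second 72 h array (adjusted p up to 0.0568). Ndufs8, a core subunit that carries iron-sulfur clusters, was 0.14 higher at 72 h (adjusted p = 0.0465) and lost the call without any 1 array of 0, 6 or 72 h (adjusted p up to 0.188). Ndufa10, an accessory subunit of the membrane arm, was 2.86 and 2.89 at 0 h, 2.89 and 2.92 at 6 h, 3.16 and 3.08 at 24 h, and 3.21 and 3.22 at 72 h. It rose by 0.25 at 24 h (adjusted p = 0.00822, and 0.0553 at most over the alternatives) and by 0.34 ± 0.05 at 72 h (adjusted p = 0.00182), and the 72 h call held in all 19 alternatives. Ndufa9, an accessory subunit near the quinone site, rose by 0.24 at 72 h (adjusted p = 0.00821), a call lost only when dim probes were not filtered (adjusted p = 0.0501).

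Of the accessory subunits called lower, Ndufa3 fell most after Ndufa4l2. Its log2 values were 5.38 and 5.43 at 0 h, 5.40 and 5.34 at 6 h, 5.09 and 5.07 at 24 h, and 5.00 and 4.97 at 72 h. All later arrays were below those of 0 and 6 h, by 0.32 ± 0.05 at 24 h and 0.42 ± 0.05 at 72 h (SE, n = 2, limma adjusted p = 0.00358 and 9.89e-04). Scaled to the median the difference at 72 h was -0.24 (adjusted p = 0.0533). Ndufb11, encoded on the X chromosome, fell by 0.31 at 24 h (adjusted p = 0.00403) and by 0.26 at 72 h, but its other 2 probes gave -0.08 and 0.03 at 72 h (adjusted p = 0.249 and 0.868). For Ndufa5, a subunit of the peripheral arm, both probes were lower at 72 h, by 0.29 and 0.42. Ndufa13, also known as GRIM-19, fell by 0.25 at 24 h (adjusted p = 0.00819) and by 0.18 at 72 h, the latter not called without any 1 array of 0 or 72 h (adjusted p up to 0.104) and at 0.00 when scaled to the median. Ndufb7, a small subunit on the outer side of the membrane arm, fell by 0.28 at 72 h (adjusted p = 0.0109) and was not called without the second array of 0 or of 72 h (adjusted p up to 0.0561). The other 7 called lower at 72 h, Ndufa1, Ndufa11, Ndufb6, Ndufb10, Ndufc2, Ndufs5 and Ndufv3, are accessory too and lay between -0.26 and -0.14.

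**Figure D4:**
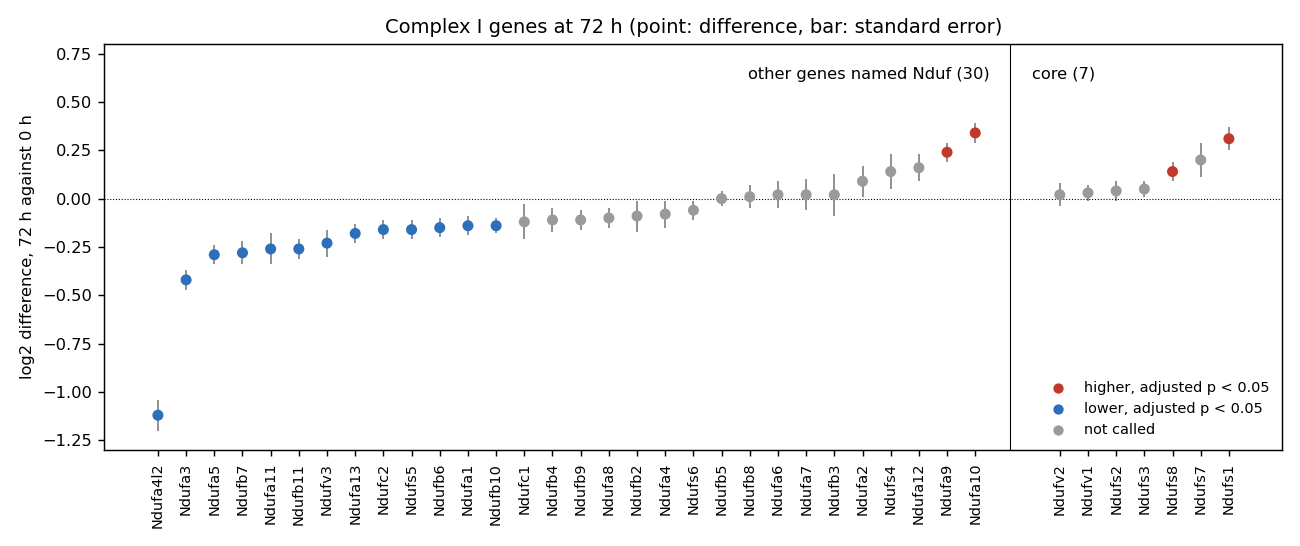
Points are the 37 complex I genes at 72 h against 0 h on the log2 scale with standard errors (2 arrays a time), sorted within the 30 other genes named Nduf and the 7 core subunits. With arrays scaled to the 75th percentile 13 of the 30 and 0 of the 7 were called lower, and 2 of each were called higher; with the median as scale 1 of the 30 was lower.

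Complex II, succinate dehydrogenase, which is also an enzyme of the citric acid cycle, had 0 of 4 genes called at 24 h and 1 higher and 1 lower at 72 h. The shares over all genes were 21.4% higher and 20.1% lower at 24 h, and 27.5% and 24.6% at 72 h. Sdha, the flavoprotein that oxidises succinate, was 4.84 and 4.80 at 0 h, 4.79 and 4.85 at 6 h, 4.90 and 4.92 at 24 h, and 5.02 and 5.03 at 72 h. It rose by 0.21 ± 0.04 (SE, n = 2, limma adjusted p = 0.0107), not called without the second array of 0 h or of 72 h (adjusted p up to 0.0597) or with quantile normalization. Sdhc, a membrane anchor, was 4.42 and 4.51 at 0 h and 4.23 and 4.25 at 72 h, with no overlap. It fell by 0.23 ± 0.06 (adjusted p = 0.0194), not called without the second 0 h array or either 72 h array (adjusted p up to 0.0905), and was at -0.05 when scaled to the median. Sdhd, the other anchor, differed by -0.17 (adjusted p = 0.0801). Sdhb, the iron-sulfur subunit, differed by 0.13 at 24 h and 0.04 at 72 h by its brightest probe and was not called, whereas its other probe was 0.26 and 0.21 higher (adjusted p = 0.00661 and 0.0104).

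Complex III, which passes electrons from ubiquinol to cytochrome c, had 2 of 8 genes higher (25.0%) and 0 lower at 24 h. Of all genes 21.4% were higher and 20.1% lower then. At 72 h 3 were higher and 3 lower (37.5% each), beside 27.5% and 24.6% of all genes. Scaled to the median they were 3 and 0 (38.5% and 12.8% of all genes), and with quantile normalization 1 and 4 (26.6% and 24.9%). Uqcrc2, a core protein on the matrix side, was 5.30 and 5.32 at 0 h, 5.36 and 5.40 at 6 h, 5.38 and 5.46 at 24 h, and 5.57 and 5.60 at 72 h. The 72 h arrays were the highest and the rise was 0.28 ± 0.05 (SE, n = 2, limma adjusted p = 0.00442), held in each scaling and without any 1 array. Uqcrq, a small subunit of the membrane part, was 6.65 and 6.72 at 0 h, 6.80 and 6.78 at 6 h, 6.96 and 6.97 at 24 h, and 6.84 and 6.85 at 72 h. Its highest arrays were those of 24 h, 0.28 ± 0.04 above 0 h (adjusted p = 0.00473), and its second probe gave 0.36. At 72 h it was 0.16 higher (adjusted p = 0.0285), not called without the first 0 h array or any 1 array of 6 or 72 h (adjusted p up to 0.128). Uqcrfs1, the Rieske iron-sulfur protein, was 0.20 higher at 24 h (adjusted p = 0.0308) and 0.18 at 72 h, and both calls were lost without any 1 array of 0, 6 or 72 h (adjusted p up to 0.143).

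The small subunits Uqcrh, Uqcr10 and Uqcr11 were those called lower. Uqcrh, the acidic hinge protein beside cytochrome c1, was 7.31 and 7.32 at 0 h, 7.38 and 7.36 at 6 h, 7.16 and 7.17 at 24 h, and 6.97 and 7.10 at 72 h. All arrays of 24 and 72 h were below those of 0 and 6 h, and the fall at 72 h was 0.28 ± 0.05 (SE, n = 2, limma adjusted p = 0.00747). Uqcr10 fell by 0.22 and Uqcr11 by 0.20 at 72 h (adjusted p = 0.0176 and 0.0199), with all their other probes called lower too. Neither was called without the second 0 h array or either 72 h array (adjusted p up to 0.0788 and 0.0995), and all 3 genes were within 0.10 of 0 when scaled to the median.

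Complex IV, cytochrome c oxidase, had 1 gene higher (6.25%) and 2 lower (12.5%) of 16 at 24 h, beside 21.4% and 20.1% of all genes. At 72 h 2 were higher (12.5%) and 3 lower (18.8%), beside 27.5% and 24.6%. Apart from the tissue isoforms above the calls were small. Cox5a, subunit Va on the matrix side, gave the only call of the 82 genes at 6 h. It was 6.78 and 6.83 at 0 h, 6.96 and 7.01 at 6 h, 6.98 and 7.00 at 24 h, and 6.91 and 6.89 at 72 h. All induced arrays were above those of 0 h, by 0.18 ± 0.04 at 6 h (SE, n = 2, limma adjusted p = 0.0435), 0.19 at 24 h (adjusted p = 0.0180) and 0.10 at 72 h (adjusted p = 0.115). The 6 h call was lost without any 1 of the 8 arrays (adjusted p 0.0583 to 0.194), and the 24 h call without the first 0 h or the second 24 h array (adjusted p up to 0.0864). Cox6c, a small subunit, was 7.43 and 7.38 at 0 h and 7.15 and 7.18 at 72 h and fell by 0.24 (adjusted p = 0.0139), not called without the first 0 h array or either 72 h array (adjusted p up to 0.0719). Its fall by 0.18 at 24 h (adjusted p = 0.0451) was lost without any 1 array of 0, 24 or 72 h. The call was also lost with normexp (-0.13), when scaled to the median (-0.03) and with the replicate number added to the fit (-0.18, adjusted p = 0.0549). Cox7a2l, which joins complexes III and IV in supercomplexes, was 7.19 and 7.19 at 0 h and 7.35 and 7.36 at 72 h. It was 0.17 higher (adjusted p = 0.0295), not called without any 1 array of 0, 6 or 72 h. Its other probes gave 0.19 and 0.07 at 72 h and were not called (adjusted p = 0.0599 and 0.290).

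Complex V, the ATP synthase, had 2 of 17 genes higher and 2 lower at 24 h (11.8% each), beside 21.4% and 20.1% of all genes. At 72 h 1 was higher (5.88%) and 4 lower (23.5%), beside 27.5% and 24.6%. Scaled to the median they were 6 and 0 (38.5% and 12.8% of all genes), and with quantile normalization 1 and 8 (26.6% and 24.9%). The 5 genes of the catalytic F1 head were not called at any time, and at 72 h they lay between -0.06 and 0.13. The 4 lower at 72 h were Atp5h, 1 of 4 genes of the peripheral stalk, Atp5k and Atp5j2, 2 of 3 small membrane subunits, and Atp5sl, which is not a subunit. Atp5s, the gene called higher, is not a subunit either. Atp5h, subunit d of the peripheral stalk, was 7.60 and 7.57 at 0 h, 7.62 and 7.58 at 6 h, 7.35 and 7.36 at 24 h, and 7.22 and 7.24 at 72 h. It fell by 0.23 at 24 h and 0.35 ± 0.04 at 72 h (SE, n = 2, limma adjusted p = 0.00787 and 0.00116), but a second probe gave 0.01 and -0.10 and was not called, so its probes disagree. Atp5k, subunit e, was 6.62 and 6.58 at 0 h, 6.60 and 6.62 at 6 h, 6.49 and 6.51 at 24 h, and 6.27 and 6.28 at 72 h. The 72 h arrays were below all others, by 0.32 ± 0.04 against 0 h (adjusted p = 0.00151). Both other probes were lower (by 0.27 and 0.26), but their positions are given on chromosome Y and that of the brightest probe on chromosome 5. Scaled to the median it was at -0.14 (adjusted p = 0.204). Atp5j2, subunit f, fell by 0.20 at 72 h (adjusted p = 0.0183), not called without any 1 array of 0 or 72 h. Its other probe gave -0.10 and was not called (adjusted p = 0.118).

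The c ring, whose turning drives ATP synthesis, is encoded by Atp5g1, Atp5g2 and Atp5g3, which give the same mature protein. At 72 h they differed from 0 h by 0.05, 0.04 and -0.14 and none of the 3 was called (adjusted p 0.0503 to 0.586). Atp5g1 was 6.63 and 6.70 at 0 h and 6.85 and 6.84 at 24 h, a rise of 0.17 ± 0.05 (SE, n = 2, limma adjusted p = 0.0271) that was lost without any 1 array except the second 0 h array (adjusted p up to 0.122). Atp5f1 (now Atp5pb), subunit b of the stalk, was also 0.17 higher at 24 h (adjusted p = 0.0332), lost without any 1 array of 0, 6 or 24 h. Its other probe gave 0.12 and was not called (adjusted p = 0.0885). For Atp5g2 the brightest probe gave -0.13 at 24 h and was not called, whereas its other probe was lower by 0.19 (adjusted p = 0.0233). Several of these genes have processed copies elsewhere in the genome, so their probes may also read near-identical transcripts.

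Of the genes named Atp5 that are not subunits, Atp5s was -0.88 and -0.76 at 0 h, -0.98 and -0.97 at 6 h, -0.92 and -0.82 at 24 h, and -0.37 and -0.40 at 72 h. Only the 72 h arrays were higher, by 0.44 ± 0.06 (SE, n = 2, limma adjusted p = 0.00205), held in each scaling and without any 1 array. Atp5sl was 3.21 and 3.17 at 0 h, 3.03 and 3.01 at 6 h, 2.87 and 2.84 at 24 h, and 3.00 and 3.07 at 72 h. Its lowest arrays were at 24 h, 0.33 ± 0.05 below 0 h (adjusted p = 0.00281), while the fall by 0.16 at 72 h was lost without any 1 array of 0, 6 or 72 h (adjusted p up to 0.149) and was at 0.02 when scaled to the median. Cox4nb was not called (0.08, 0.14 and 0.04).

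Promoters are shown for genes that moved in opposite directions and were picked by hand. Cox6a1, Atp5k and Atp5h were called lower at 72 h, and Cox7a1 was the tissue isoform that fell most. Ndufa10 was the gene named for complex I that rose most among the 37. The sequences are the 200 bases before the start site from RefSeq (GRCm38.p6), read 5′ to 3′ on the gene's strand, and capitals mark a match to 1 of 3 motifs of factors known for respiratory genes: GCGCATGC for NRF1, CCGGAAGT for the ETS family factor GABP, and AAGATGGC for YY1, each sought on both strands.
Cox6a1, chr5:115348959-115349158, minus strand: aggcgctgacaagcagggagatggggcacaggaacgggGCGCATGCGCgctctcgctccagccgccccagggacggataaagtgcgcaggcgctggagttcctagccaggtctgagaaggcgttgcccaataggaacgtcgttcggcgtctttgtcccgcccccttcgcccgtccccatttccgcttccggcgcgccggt
Atp5k, chr5:108434400-108434599, minus strand: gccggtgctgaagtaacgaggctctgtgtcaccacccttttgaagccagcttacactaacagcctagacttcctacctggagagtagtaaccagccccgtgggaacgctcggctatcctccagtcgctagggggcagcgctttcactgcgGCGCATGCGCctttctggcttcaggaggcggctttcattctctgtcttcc
Atp5h, chr11:115419920-115420119, minus strand: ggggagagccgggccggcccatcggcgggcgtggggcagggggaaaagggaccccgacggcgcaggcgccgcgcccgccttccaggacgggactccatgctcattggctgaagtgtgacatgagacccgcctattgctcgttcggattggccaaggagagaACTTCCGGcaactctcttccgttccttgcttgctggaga
Cox7a1, chr7:30183971-30184170, plus strand: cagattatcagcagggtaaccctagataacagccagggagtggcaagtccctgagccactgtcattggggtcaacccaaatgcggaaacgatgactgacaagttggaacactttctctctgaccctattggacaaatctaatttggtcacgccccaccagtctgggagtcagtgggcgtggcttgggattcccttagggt
Ndufa10, chr1:92473759-92473958, minus strand: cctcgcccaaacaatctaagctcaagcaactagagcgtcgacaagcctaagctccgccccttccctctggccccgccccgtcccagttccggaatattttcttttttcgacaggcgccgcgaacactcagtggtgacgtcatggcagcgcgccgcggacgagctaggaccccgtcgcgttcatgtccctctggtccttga

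In Cox6a1 and Atp5k the capitals are NRF1 matches on both strands that overlap in a palindrome, counted once, and in Atp5h an ETS match. The windows of Cox7a1 and Ndufa10 hold none of the 3 letter strings, which says only that these letters are not there. Over the 67 of 82 genes with a promoter in the table, searched from 250 bases before to 50 after the start site, the NRF1 motif was in 14.9%, the ETS motif in 7.46% and the YY1 motif in 16.4%. Over all 27025 genes with a promoter the shares were 3.05%, 4.31% and 3.19%. At least 1 motif was in 37.3% of the 67 and 9.91% of all. It was in 9 of 21 genes called lower at 72 h, 15 of 39 not called and 1 of 7 called higher. The printed promoters do not stand for these groups. Ndufb11, Ndufa5 and Ndufb7, also lower, held no match, and Ndufa9, which was higher, held a YY1 match. A match is a description of the letters and not a site of binding.

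Genes that work beside the subunits were read in the same way. Their lists were drawn up with earlier results known and are described by counts. Of 12 complex IV assembly factors 9 were higher and 1 lower at 72 h (median 0.48), of 10 for complex I 5 and 1 (median 0.23), and of 5 for complexes II and III 2 and 1 (median -0.01), against 27.5% and 24.6% of all genes. Both measured factors of complex V, Tmem70 and Atpaf2, were higher. With the median as scale 10 factors of complex IV and 7 of complex I were higher (38.5% of all genes), and with quantile normalization 8 and 5 (26.6%). Sco2, a copper chaperone for complex IV, rose at every time, by 0.47 at 6 h, 0.72 at 24 h and 0.90 ± 0.06 at 72 h (SE, n = 2, limma adjusted p = 1.52e-04). Lrpprc, which stabilises mitochondrial transcripts, rose by 0.71 at 72 h (adjusted p = 1.03e-04). Ndufaf4, a complex I assembly factor, rose 1.98-fold at 72 h (adjusted p = 9.25e-05). Lyrm2 fell by 0.65 at 72 h (adjusted p = 0.00151).

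The mitochondrially encoded subunits had probes for 12 genes, with a median of 0.12 at 72 h. Of these 5 were higher (41.7%) and 1 lower (8.33%), where over all genes 27.5% were higher and 24.6% lower. Scaled to the median 9 were higher and 1 lower (38.5% and 12.8% of all genes), and with quantile normalization 4 and 3 (26.6% and 24.9%). ND1, a core subunit of the membrane arm of complex I, was 2.58 and 2.60 at 0 h, 2.79 and 2.73 at 6 h, 2.95 and 2.91 at 24 h, and 3.07 and 3.09 at 72 h. Each later pair lay above the pair before, and the rise at 72 h was 0.49 ± 0.04 (SE, n = 2, limma adjusted p = 4.71e-04). ND6, the subunit gene on the opposite strand of mitochondrial DNA, fell by 0.58 at 72 h (adjusted p = 0.00121). Of 11 electron carriers, subunits and proteins that bind the complexes, none taken by the name rule, 3 were higher (27.3%) and 4 lower (36.4%) at 72 h. Their median was -0.05, and over all genes 27.5% were higher and 24.6% lower. Scaled to the median 5 were higher and 2 lower, and with quantile normalization 3 and 6. In that list cytochrome c (Cycs) rose by 0.75 at 24 h and 0.63 at 72 h (adjusted p = 5.54e-04 and 5.71e-04). Higd1a, a small protein that binds complex IV and is known from low oxygen, rose 2.45-fold at 72 h (adjusted p = 1.02e-04), and Etfb, which brings electrons from fatty acid oxidation, fell by 0.54 (adjusted p = 2.73e-04).

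Of 13 regulators of respiratory genes 4 were higher (30.8%, beside 27.5% of all genes) and 2 lower (15.4%, beside 24.6%) at 72 h. Their median was -0.01. Ppargc1a, a coactivator of respiratory gene transcription, was -0.71 and -0.70 at 0 h, -1.28 and -1.33 at 6 h, -1.62 and -2.29 at 24 h, and -1.88 and -1.67 at 72 h. All induced arrays were lower than those of 0 h, by 1.25 ± 0.21 at 24 h (SE, n = 2, limma adjusted p = 0.00609) and 1.07 at 72 h. Hif1a, which encodes a subunit of the oxygen-regulated factor HIF-1, rose by 0.66 at 6 h (limma adjusted p = 0.00252) and 0.34 at 72 h. Gabpb1, a GABP subunit, rose by 0.29 at 72 h (adjusted p = 0.00624).

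**Figure D5:**
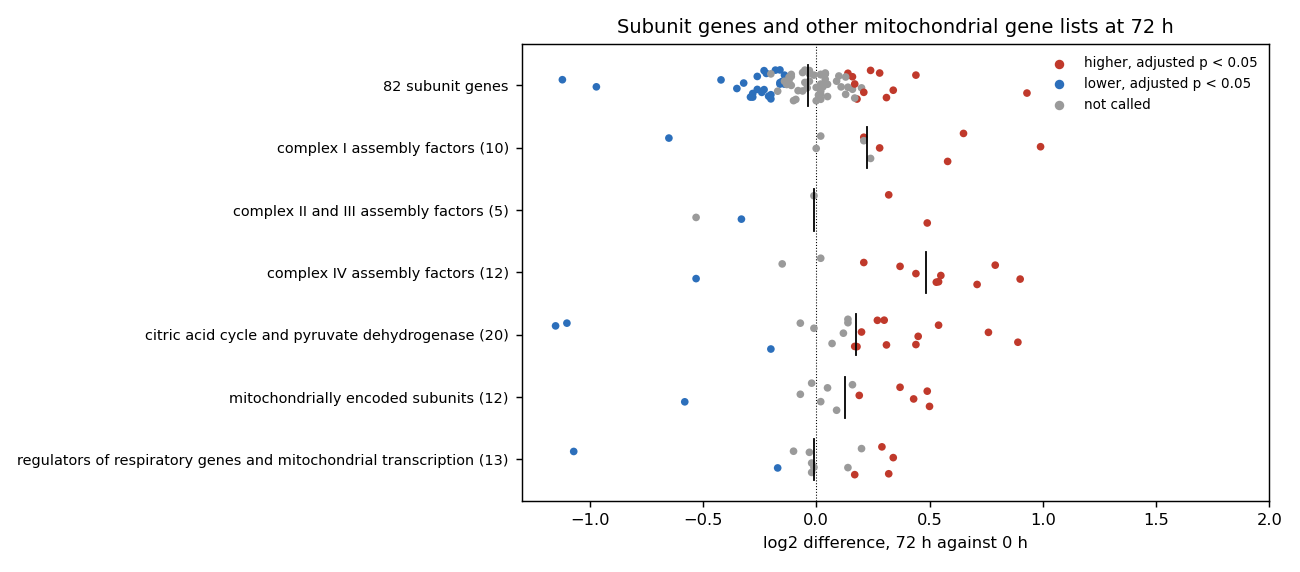
Each point is a gene with its log2 difference at 72 h against 0 h on the horizontal axis, for the 82 subunit genes and 6 other lists (genes tested in parentheses), with a bar at each list's median. The median of the 82 genes was -0.04 and that of the complex IV assembly factors 0.48; the order of those 2 medians was the same when arrays were scaled to the median (0.15 and 0.67) or quantile normalized (-0.13 and 0.48).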

How the data were processed

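Total RNA was labelled with Cy3 and hybridised to 1-colour Agilent arrays, 8 on 1 slide, scanned once, with time following slide row and replicate number slide column. The deposited processed signal is a background-subtracted intensity on a linear scale, quantified with Feature Extraction 10.5.1.1 on mm9 probe positions per the file headers, while the submitters' processing notes give 10.7.3.1. The deposited value table, also an intensity, differs from it by at most 0.497%.

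Values here are log2 of that signal minus each array's 75th percentile. Outlier spots were left out, which removed no value of the 82 genes. Probes well above background on both arrays of at least 1 time were kept (28602 of 55681), and the brightest stood for its gene name (20847 genes). limma 3.58.1 (R 4.3.3) fitted 4 time means to the 8 arrays, with 4 residual degrees of freedom, a prior of 1.71 and a median standard error of 0.0754. Benjamini-Hochberg adjustment ran over all genes, at a threshold of 0.05. Adjusted p-values for a gene's other probes came from a second limma fit, adjusted over all kept probes. With 2 against 2 arrays an exact permutation test of 1 gene cannot go below 0.333. The method was tested on simulated data.

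Named are, per complex, up to 4 of the largest called rises and falls at 24 and at 72 h and 2 at 6 h, all of complex II, isoforms and the c ring, and of other lists up to 3 genes. Members and lists were chosen with earlier results of these data known, and 4 genes carry newer RefSeq names. The number of arrays limits precision. The 19 alternatives covered background correction, scaling, filters, probe choice, outlier spots, the variance model, the replicate block, the arrays in the fit, the value table and each array left out. Python 3.11.15 with matplotlib 3.10.9 and pandas 2.3.3 made the figures.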

Additional observations from a re-analysis of the deposited data

How the results depend on the processing

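Counts below are genes of the 82 called higher and lower, against 11 and 24 at 72 h, 6 and 9 at 24 h, 1 and 0 at 6 h, 2 and 9 from 6 to 24 h, and 5 and 3 from 24 to 72 h. Scaling to the median gave 28 and 2 at 72 h, 22 and 2 at 24 h, 0 higher at 6 h, 2 lower from 6 to 24 h, and 2 and 0 from 24 to 72 h. Quantile normalization gave 7 higher at 72 h, 2 and 22 at 24 h, 0 and 1 at 6 h, and 5 lower from 24 to 72 h. With no filter, which tests more genes, they were 5 and 8, 1 and 5, 0 higher, 0 and 2, and 2 and 0. Over all genes the shares were then 11.3% and 10.4% at 72 h, 8.11% and 7.35% at 24 h, and 1.79% higher at 6 h. They were 2.13% and 3.48% from 6 to 24 h, and 0.957% and 1.61% from 24 to 72 h. With only the 4 arrays compared the counts were 1 and 5 at 24 h, 0 higher at 6 h, 0 and 2 from 6 to 24 h, and 2 and 0 from 24 to 72 h. The shares over all genes were then 15.4% and 14.9%, 5.27% higher, 5.11% and 7.76%, and 2.17% and 3.18%. With an intensity trend the counts were 13 higher at 24 h (over all genes 23.5%), 2 and 1 at 6 h (14.1% and 9.64%), and 7 lower from 24 to 72 h (13.7%). Normexp gave 14 lower at 24 h (over all genes 19.1%), 0 higher at 6 h (10.1%) and 3 higher from 24 to 72 h (11.3%). Requiring all 8 arrays gave 1 lower at 6 h (over all genes 9.01%), and the mean of a gene's probes 5 lower from 24 to 72 h (over all genes 10.9%). Without 1 array, counts ran from 5 to 11 and 9 to 21 at 72 h, 2 to 5 and 7 to 8 at 24 h, 0 to 0 and 0 to 0 at 6 h, 0 to 2 and 3 to 7 from 6 to 24 h, and 1 to 4 and 0 to 2 from 24 to 72 h. Of 43 calls of named genes against 0 h, 9 held in all 19 settings, 34 were lost in at least 1, and 2 turned sign when scaled to the median (Atp5sl 0.02 and Ndufa13 0.00 at 72 h). The cause of these shifts was not tested.

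The replicate number follows the slide column, and the labels do not say what else it may stand for. Deviations of same-numbered arrays correlated across genes at 0.05 to 0.17. With the replicate number as a block the counts were 12 and 26 at 72 h, 8 and 10 at 24 h, and 5 and 5 from 24 to 72 h. Over all genes the shares were then 28.8% and 25.9%, 22.7% and 21.4%, and 12.2% and 11.9%. No other count of the 82 moved by over 1.5 times. Of the calls of named genes the block ended 1, Cox6c at 24 h (-0.18, adjusted p = 0.0549), and it added 3, Atp5g3 at 72 h and Ndufa5 and Ndufs1 at 24 h.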

Other observations

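The citric acid cycle and pyruvate dehydrogenase list, which feeds the respiratory chain, had 11 of 20 genes higher (55.0%) and 3 lower (15%) at 72 h (median 0.18), where over all genes 27.5% were higher and 24.6% lower. When arrays were scaled to the median the counts were 14 and 2 (70.0% and 10%, over all genes 38.5% and 12.8%), and with quantile normalization 7 and 3 (35.0% and 15%, over all genes 26.6% and 24.9%). Idh3a, a subunit of the NAD-dependent isocitrate dehydrogenase, was 2.57 on both 0 h arrays, 2.87 and 2.91 at 6 h, 3.37 and 3.29 at 24 h, and 3.35 and 3.31 at 72 h, and rose by 0.76 at 72 h (limma adjusted p = 1.41e-04). The kinases that inactivate pyruvate dehydrogenase moved in both directions. Pdk1 was 1.05 on both 0 h arrays and 1.96 and 1.93 at 72 h, a 1.86-fold rise (adjusted p = 2.04e-04). Pdk4 was -0.04 and 0.01 at 0 h and -1.20 and -1.14 at 72 h, a 2.23-fold fall (adjusted p = 1.27e-04). Pdk2 was -0.93 and -0.80 at 0 h and -1.78 and -2.14 at 72 h, a 2.14-fold fall (adjusted p = 0.00104). Of 6 carriers and porins 2 were higher at 72 h (33.3%, beside 27.5% of all genes) and 0 lower. Slc25a5, an ADP/ATP carrier, rose by 0.65 (adjusted p = 1.26e-04), and Vdac2, a porin of the outer membrane, by 0.59 (adjusted p = 7.16e-04).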
